A study of Mus musculus with 12 samples.

Results

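The genes that encode the enzyme chain of the ubiquitin-like protein ISG15 were measured in mouse peritoneal exudate cells after interferon beta (IFN-β). The 5 genes are Isg15, Usp18, Uba7, Ube2l6 and Herc6, out of 27670 genes on the array. They were chosen by name, as every non-control probe that the array files call Isg15, Usp18, Uba7 or Ube1l, Ube2l6, and Herc6 or Herc5. This gave 7 of 41174 probes: 1 each for Isg15, Usp18, Uba7 (written Ube1l in the files) and Ube2l6, and 3 for Herc6 (written Herc5 in the files). All 7 probes passed the filter on dim probes, which kept 18276 genes for testing.

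Total RNA came from cells washed out of the abdominal cavity of female mice of 8 weeks, strain 129S2/SvPas*BALB/c, 3 hours after an injection into that cavity. The groups were Ifnar2-/- mice given IFN-β, Ifnar2-/- mice given phosphate-buffered saline (PBS), wild-type mice given IFN-β, and wild-type mice given PBS, each with 3 single-colour Agilent arrays. IFN-β was stated as 10000 IU/ml with no volume. The carrier of the interferon alone was not given to any group analysed here. Per the design text each array came from different mice. Ifnar2 encodes part of the cell-surface receptor that type I interferons bind, so the comparison asks which changes after IFN-β need that subunit. The labels do not say how the allele was made.

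ISG15 is made as a free protein and is joined to other proteins in 3 enzymatic steps. Uba7 is the E1 enzyme that activates ISG15, Ube2l6 is the E2 that carries it, and Herc6 is the main ligase (E3) that attaches it in mouse cells, the role of HERC5 in human cells. Usp18 is the protease that removes ISG15 from proteins, and it also binds the IFNAR2 subunit and dampens signalling from the receptor. The family is known in macrophages as a target of ISGF3, the transcription factor complex that type I interferons activate and that binds DNA at interferon-stimulated response elements (ISREs).

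The sequences of the brighter Herc6 probes are shown because several probes read this gene and the files call it Herc5. They are given 5′ to 3′ as in the array files, in lower case throughout.
Herc6 A_52_P64514: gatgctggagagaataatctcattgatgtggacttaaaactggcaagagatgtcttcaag
Herc6 A_52_P679860: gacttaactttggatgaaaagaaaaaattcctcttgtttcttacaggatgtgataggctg
RefSeq has the Isg15 gene at chr4:156199424-156200818 of build GRCm38.p6, and the accession on its probe, NM_015783, is the one RefSeq gives for Isg15, although the array files place that probe on another chromosome. The Herc6 probes lie on chromosome 6 of mouse build mm7 at 57586729 to 57586788 and 57630527 to 57630840, the second over a span longer than the probe. The Herc6 probe A_51_P169908 lies at 57575495 to 57575554. The probe of Usp18 is placed on chromosome 6 at 121295796 to 121295855, that of Uba7 on chromosome 9 at 107715627 to 107715686, and that of Ube2l6 on chromosome 2 at 84652949 to 84653008, the chromosomes on which RefSeq has these genes. No exon annotation of mm7 was used here.

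Promoter windows from RefSeq (GRCm38.p6), 250 bases before to 50 bases after the start of the gene, were held for 4 of the 5 genes, and Usp18 was not among them. They were searched on both strands for the ISRE core, which is GAAA, any 2 bases, and GAAA again. A shortened form without the first G, AAANNGAAA, was added after the windows had been read, and TTCNNNGAA, the gamma-activated sequence, was searched as well. The window of Isg15 held 3 overlapping ISRE cores in tandem on the strand of the gene, from 78 to 57 bases before its start, which are in capitals in its sequence. The window of Uba7 held 1 shortened match on the opposite strand, 27 to 19 bases before the start, in capitals in its sequence. Both windows are printed on the strand of the gene, which is the minus strand for Isg15 and the plus strand for Uba7.
Isg15 promoter, chr4:156200769-156201068: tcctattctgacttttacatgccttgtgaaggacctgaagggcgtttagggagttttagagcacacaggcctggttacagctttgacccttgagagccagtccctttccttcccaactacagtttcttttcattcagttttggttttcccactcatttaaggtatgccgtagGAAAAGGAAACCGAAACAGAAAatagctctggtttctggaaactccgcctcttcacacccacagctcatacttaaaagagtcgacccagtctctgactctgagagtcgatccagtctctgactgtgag
Uba7 promoter, chr9:107975317-107975616: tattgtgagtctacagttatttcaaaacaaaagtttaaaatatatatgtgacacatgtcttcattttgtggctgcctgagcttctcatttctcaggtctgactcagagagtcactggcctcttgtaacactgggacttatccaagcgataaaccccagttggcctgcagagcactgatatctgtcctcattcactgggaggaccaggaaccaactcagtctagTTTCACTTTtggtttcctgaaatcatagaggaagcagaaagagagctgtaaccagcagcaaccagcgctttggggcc
None of these letter patterns was found in the windows of Ube2l6 and Herc6, and TTCNNNGAA was found in none of the 4. Among all 32851 RefSeq promoter windows, 3.44% held the ISRE core, 10.6% held the shortened form, which lies within every ISRE core, and 8.3% held TTCNNNGAA. A match describes the letters and says nothing about binding.

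The whole series bears on these genes as follows. Between 59.4% and 71.6% of spots were well above background on each array, lowest (59.4% to 62.5%) on slide 3, which held Ifnar2-/- arrays alone. Slide 1 held the 3 wild-type PBS arrays and 1 wild-type IFN-β array, and slide 2 held 2 wild-type IFN-β arrays with 1 array of each Ifnar2-/- group. No slide held both genotypes after PBS. Markers of large peritoneal macrophages and of B cells, which make up much of such a wash, were present on all arrays (sums of 634 to 859 and of 425 to 602 times the array's 75th percentile). The targeted gene had 2 probes with opposite differences. The brighter Ifnar2 probe, A_52_P190405, averaged 2.79 in Ifnar2-/- and 4.64 in wild type after PBS on the log2 scale (log2 fold change -1.85, limma adjusted p = 5.47e-05), and the other, A_51_P338924, averaged 2.59 in Ifnar2-/- and 1.64 in wild type (0.96, limma adjusted p = 0.0149). The labels do not say which exons are missing, so neither probe checks the genotype.

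Levels are log2 of the deposited processed signal minus the 75th percentile of the same array, so that 0 is the brightness of a spot at that percentile. Levels of different probes are not comparable with each other, and only the same probe is compared between arrays. In these mixed cells, more RNA per cell and more cells that express a gene cannot be told apart.

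In wild-type mice all 5 genes of the chain were far higher after IFN-β than after PBS. The order of the folds was Isg15, Usp18, Herc6, Ube2l6 and Uba7, from 403-fold down to 4.78-fold. Isg15, the modifier itself, lay at 7.58, 7.41 and 7.45 on the IFN-β arrays and at -1.36, -1.16 and -1.01 on the PBS arrays. Its log2 fold change was 8.66 ± 0.15 (SE; limma adjusted p = 5.83e-10), a 403-fold difference with a 95% interval of 318 to 512. By size this change ranked 17 among the 18276 genes tested.

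Usp18, the protease that takes ISG15 off again, lay at 6.54, 6.42 and 6.52 after IFN-β and at -2.04, -1.58 and -1.27 after PBS in wild type. The groups stood apart by far more than the spread within either of them. Its log2 fold change was 8.12 ± 0.42 (SE; limma adjusted p = 2.43e-07), or 278-fold with a 95% interval of 145 to 533.

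Herc6, the ligase, was read by 3 probes, of which the brightest stands for the gene. That probe, A_52_P64514, lay at 3.76, 3.53 and 3.57 after IFN-β and at -1.66, -1.49 and -1.30 after PBS in wild type, a log2 fold change of 5.10 ± 0.19 (SE; limma adjusted p = 2.07e-08) or 34.4-fold (95% interval 25.8 to 45.7). Probe A_52_P679860 moved the same way, by 5.70 ± 0.22 on the log2 scale (SE). With all 27718 probes in the fit, its limma adjusted p was 2.68e-08. The dim probe A_51_P169908 was well above background on 3 wild-type IFN-β arrays and on 2 of 3 wild-type PBS arrays. It passed the filter only through the wild-type IFN-β group, where it is high. Its difference of 4.72 ± 0.38 is therefore no separate support for Herc6.

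Ube2l6, the E2 carrier, lay at 3.68, 3.42 and 3.64 after IFN-β and at -0.82, -0.70 and -0.86 after PBS in wild type. Its log2 fold change was 4.37 ± 0.19 (SE; limma adjusted p = 7e-08), or 20.7-fold with a 95% interval of 15.4 to 27.8. Uba7, the E1 enzyme at the head of the chain, lay at 6.31, 6.14 and 6.34 after IFN-β and at 4.01, 4.11 and 3.90 after PBS. Uba7 had the smallest change of the 5, a log2 fold change of 2.26 ± 0.21 (SE; limma adjusted p = 1.59e-05) or 4.78-fold (95% interval 3.47 to 6.58), and its probe was already bright after PBS.

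All 5 genes passed the threshold of an adjusted p under 0.05 upward, where 17.6% of all genes tested did so upward, 21.8% downward and 39.4% in either direction. In all 5 the lowest IFN-β array lay above the highest PBS array, as for 24.6% of all genes, while 29.1% had groups apart in the other direction. The median log2 fold change over the 5 was the 5.10 of Herc6, and over all genes it was -0.04. Slide 1 alone held wild-type arrays of both treatments, and there the differences between 1 IFN-β array and 3 PBS arrays were 8.76 for Isg15, 8.17 for Usp18, 5.24 for Herc6, 4.47 for Ube2l6 and 2.30 for Uba7.

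**Figure D1:**
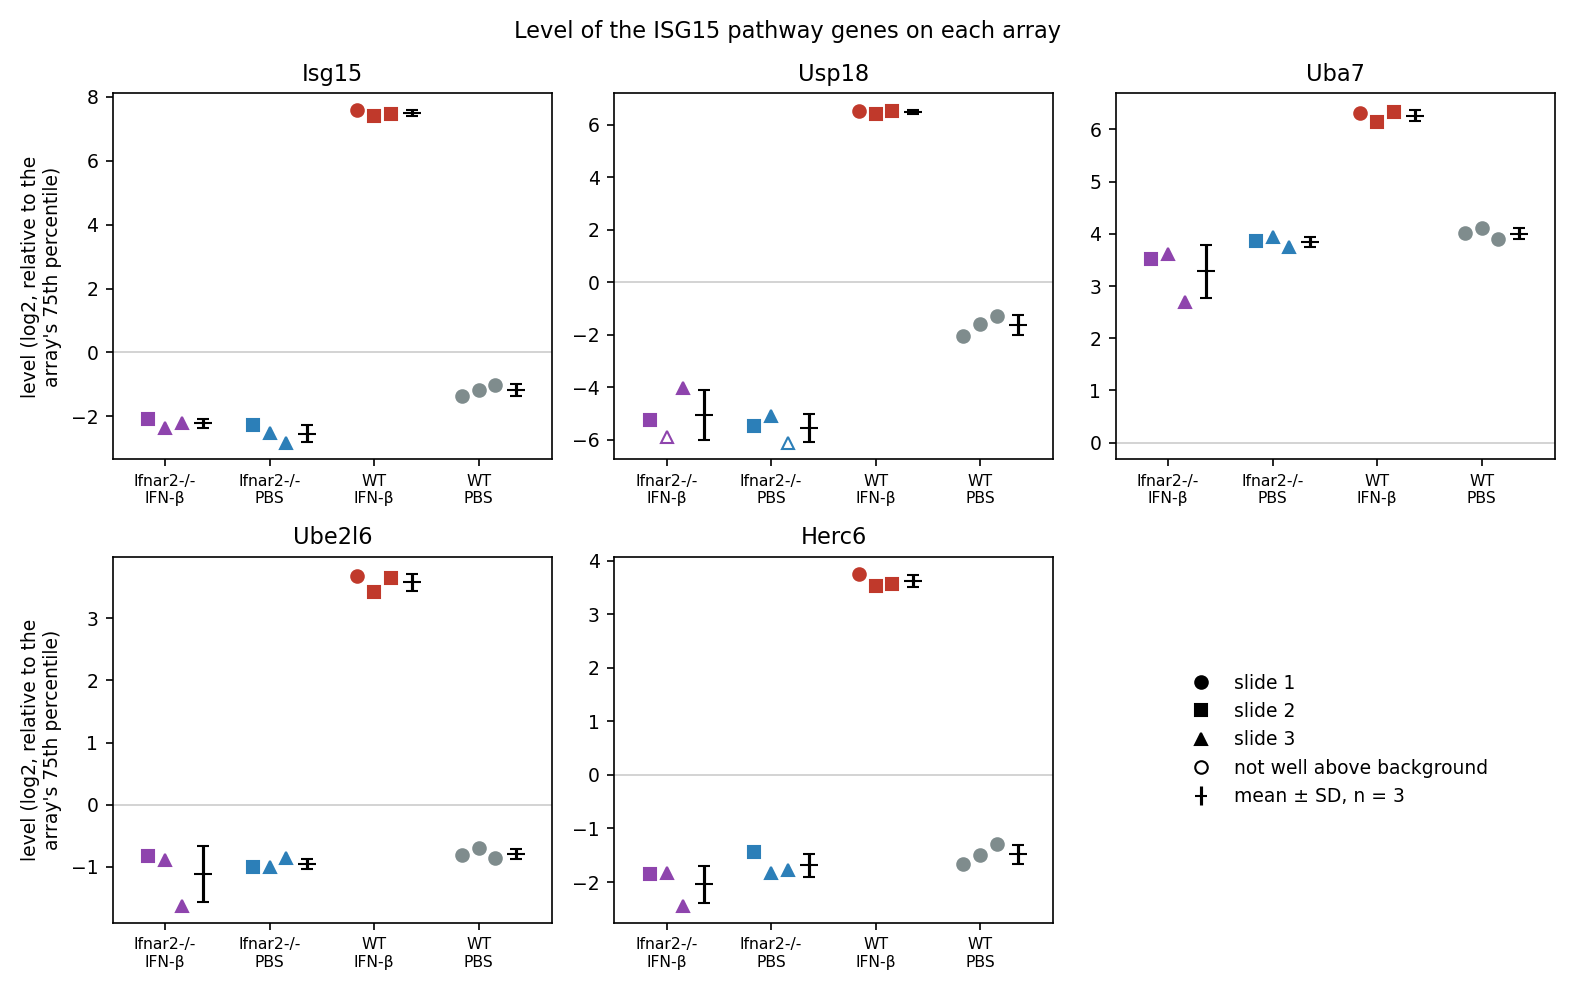
Level of each gene on each of the 12 arrays (vertical axis, log2 relative to the array's 75th percentile, with its own range in each panel), by group on the horizontal axis; Herc6 is shown by probe A_52_P64514. Points are arrays, shaped by slide and open where not well above background, and black marks are means ± SD (n = 3). The 3 wild-type IFN-β arrays stand alone at the top of every panel, and Isg15 and Usp18 also lie lower in both Ifnar2-/- groups than in wild type after PBS.

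The size of the wild-type response was compared between the genes. Within each array the difference between a pair of genes was taken, and its change between the 3 IFN-β and the 3 PBS wild-type arrays was tested by an exact two-sided permutation test for all 10 pairs. The response of Isg15 exceeded that of Usp18 by 0.54, that of Herc6 by 3.55, that of Ube2l6 by 4.28 and that of Uba7 by 6.40 on the log2 scale. Each of the 10 pairs had an exact permutation p of 0.1 (adjusted p = 0.1 over the 10), the smallest value that 3 against 3 arrays allow, so no pair could pass the threshold. The 95% intervals of the log2 fold changes of Isg15 (8.31 to 8.999) and Usp18 (7.18 to 9.06) overlapped, and so did those of Herc6 (4.69 to 5.51) and Ube2l6 (3.95 to 4.80), while that of Uba7 (1.79 to 2.72) overlapped none of the others.

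Cell type markers were set beside the wild-type response. Of 8 monocyte markers tested, 5 were higher after IFN-β, Ly6c1, Chil3, Plac8 and Ms4a6c among them, and 0 lower, and their summed level was 482 to 530 after IFN-β and 233 to 261 after PBS in wild type. The chemokine receptor Ccr2 (log2 fold change 0.33, limma adjusted p = 0.263), F13a1 (-0.52, adjusted p = 0.164) and Fn1 (-0.07, adjusted p = 0.81) did not pass the test. All 8 were well above background on all 12 arrays. In Ifnar2-/- mice the sum was 228 to 237 after IFN-β and 228 to 254 after PBS, with 0 of 8 markers past the threshold (1.13% of all genes). Some markers of other cells were lower after IFN-β in wild type. Of 8 mesothelial markers 4 were lower and 0 higher, with sums of 1.03 to 1.24 after IFN-β and 1.85 to 2.25 after PBS. The mesothelial sums were also lower after IFN-β in Ifnar2-/- mice, 1.16 to 1.53 against 1.90 to 2.28 after PBS. There 0 of 8 markers passed the threshold. The responses of the 2 genotypes differed by limma for 0 of 8, beside 17.8% of all genes. Of 7 dendritic cell markers 3 were lower and 1 higher in wild type, with sums of 1.30 to 1.75 after IFN-β and 2.04 to 3.64 after PBS. Further, 3 of 11 B cell, 5 of 12 T and NK cell and 3 of 8 mast cell markers were lower, while 0 B cell, 2 T and NK cell and 1 mast cell markers were higher. Of 11 large peritoneal macrophage markers 3 were lower and 2 higher. Beside these counts, 21.8% of all genes tested passed downward and 17.6% upward in wild type. Counts near those shares are no result about a cell type. The part of these cell types in the response of the ISG15 genes was not tested.

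In Ifnar2-/- mice none of the 5 genes passed the test after IFN-β, where 1.13% of all genes did, 0.925% upward and 0.208% downward. In these groups same-numbered arrays, which also shared a slide, had deviations that correlated over 0.1. With the replicate number as a block in the Ifnar2-/- arrays alone 0 of 18276 genes passed by limma, and 2800 had an unadjusted p under 0.05. Without the block 13 passed in those arrays alone, and 207 in the fit of all 12 arrays. Isg15 lay at -2.08, -2.37 and -2.21 after IFN-β and at -2.28, -2.51 and -2.82 after PBS, and the groups overlapped. Its log2 fold change was 0.32 (95% interval -0.03 to 0.66, limma adjusted p = 0.312), which allows at most a 1.58-fold difference upward against 403-fold in wild type.

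Usp18 lay at -5.25, -5.91 and -4.02 after IFN-β and at -5.49, -5.08 and -6.11 after PBS in Ifnar2-/- mice, with 2 of 3 arrays of each group well above background. The log2 fold change was 0.50 (95% interval -0.44 to 1.44, limma adjusted p = 0.571), and the single array Ifnar2-/- IFN-β 3 was the highest of the 6. Without that array the log2 fold change was -0.02 (limma adjusted p = 0.985).

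Herc6 lay at -1.86, -1.83 and -2.45 after IFN-β and at -1.44, -1.83 and -1.78 after PBS in Ifnar2-/- mice, a log2 fold change of -0.36 (95% interval -0.77 to 0.05, limma adjusted p = 0.335). Ube2l6 lay at -0.83, -0.89 and -1.63 after IFN-β and at -1.01, -0.9997 and -0.86 after PBS, a log2 fold change of -0.16 (95% interval -0.58 to 0.27, limma adjusted p = 0.705). Both genes were lowest on the array Ifnar2-/- IFN-β 3. Without that array the log2 fold change was -0.16 for Herc6 (limma adjusted p = 0.741) and 0.10 for Ube2l6 (limma adjusted p = 0.783).

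Uba7 was the only gene of the 5 whose Ifnar2-/- groups did not overlap, as for 12.2% of all genes in that direction and 11.3% in the other. It lay at 3.52, 3.61 and 2.70 after IFN-β and at 3.86, 3.94 and 3.74 after PBS. The log2 fold change of -0.57 (95% interval -1.03 to -0.11) did not pass the test over all genes (limma adjusted p = 0.195), and its direction was opposite to that in wild type. Without the array Ifnar2-/- IFN-β 3, which was again the lowest, it was -0.28 (limma adjusted p = 0.375).

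The array Ifnar2-/- IFN-β 3 also had the highest summed level of 10 neutrophil markers, 201, beside 21.6 and 81.7 on the other Ifnar2-/- IFN-β arrays and 12.4 to 17.5 on the Ifnar2-/- PBS arrays. None of the 10 markers passed the test between these groups (median log2 fold change 2.00), and 10 of 10 were well above background on all Ifnar2-/- IFN-β arrays. The part of neutrophils in the levels of the ISG15 genes was not tested. On slide 2, with 1 array of each treatment, the Ifnar2-/- differences between IFN-β and PBS were 0.20 for Isg15, 0.24 for Usp18, -0.41 for Herc6, 0.18 for Ube2l6 and -0.34 for Uba7. On slide 3, with 2 arrays of each, they were 0.37 for Isg15, 0.63 for Usp18, -0.33 for Herc6, -0.33 for Ube2l6 and -0.68 for Uba7.

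The difference between the responses was tested as an interaction, Ifnar2-/- minus wild type. All 5 genes passed the threshold downward, as did 9.09% of all genes (8.68% passed upward and 17.8% in either direction). The difference was -8.34 ± 0.22 for Isg15 (SE; limma adjusted p = 1.99e-08), -7.62 ± 0.60 for Usp18 (adjusted p = 1.34e-05), -5.46 ± 0.26 for Herc6 (adjusted p = 5.31e-07), -4.53 ± 0.27 for Ube2l6 (adjusted p = 2.02e-06) and -2.83 ± 0.29 for Uba7 (adjusted p = 0.000101), all on the log2 scale. The log2 fold change in Ifnar2-/- mice, which did not pass the test for any of the 5, was 3.65% of that in wild type for Isg15 and 6.13% for Usp18. It was of opposite sign for Herc6, Ube2l6 and Uba7. Without the array Ifnar2-/- IFN-β 3 it was -0.02 for Usp18 and 0.10 for Ube2l6. The others kept their sign, with 0.31 for Isg15, -0.16 for Herc6 and -0.28 for Uba7. Herc6 probe A_52_P679860 had the same direction as A_52_P64514, with -6.20 (limma adjusted p = 6.28e-07). No difference is given for A_51_P169908, which was well above background on no Ifnar2-/- array.

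**Figure D2:**
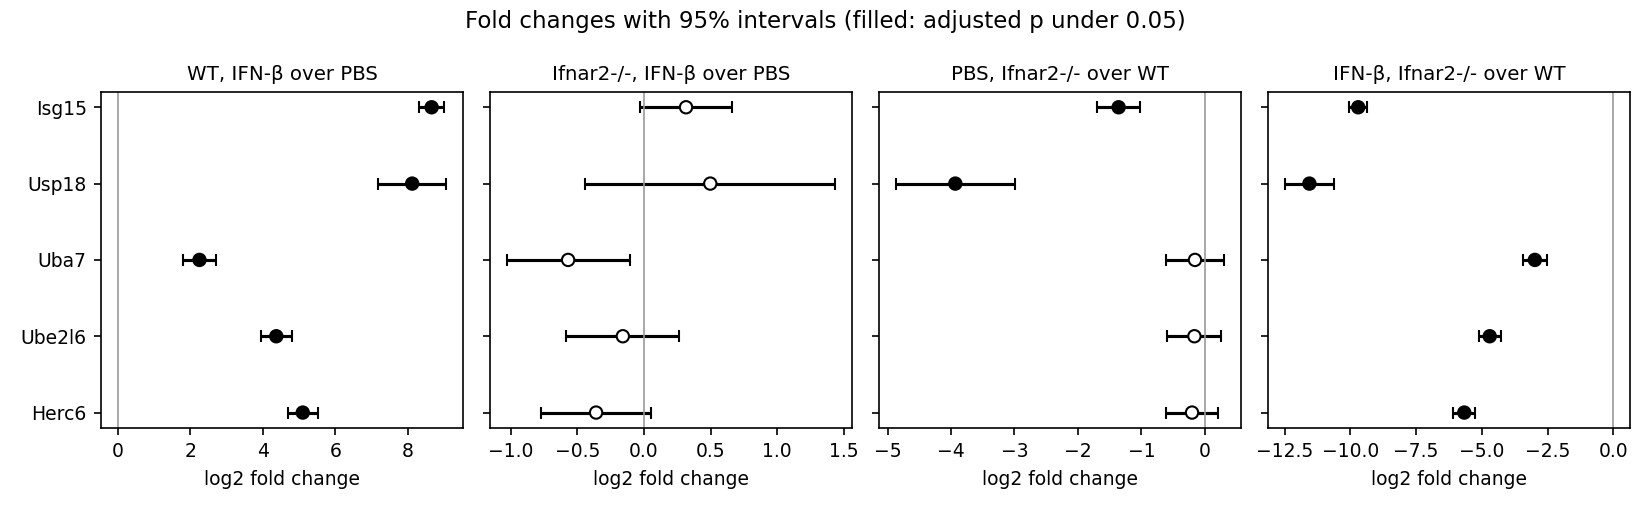
Log2 fold changes of the 5 genes (rows) in 4 comparisons, one per panel with its own horizontal axis; bars are 95% intervals from the limma fit and filled points have an adjusted p under 0.05. The wild-type response runs from 2.26 for Uba7 to 8.66 for Isg15, and no gene passed the threshold in Ifnar2-/- mice. After PBS all 5 points lie left of 0, and only those of Isg15 and Usp18 passed the threshold.

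Without injected interferon, Isg15 and Usp18 were lower in Ifnar2-/- than in wild-type mice. Isg15 lay at -2.28, -2.51 and -2.82 in Ifnar2-/- and at -1.36, -1.16 and -1.01 in wild type, a log2 fold change of -1.36 ± 0.15 (SE; limma adjusted p = 0.000672), or 2.57-fold lower with a 95% interval of 2.02 to 3.26. Usp18 lay at -5.49, -5.08 and -6.11 in Ifnar2-/- and at -2.04, -1.58 and -1.27 in wild type, a log2 fold change of -3.93 ± 0.42 (SE; limma adjusted p = 0.000471), or 15.3-fold lower with a 95% interval of 7.96 to 29.3. By size the difference of Usp18 ranked 33 among the 18276 genes. The probe of Usp18 was well above background on 2 of 3 Ifnar2-/- PBS arrays, and its size depended on how background was treated. With normexp background correction the log2 fold change of Usp18 was -2.15 (limma adjusted p = 2.28e-05), and that of Isg15 was -0.996 (adjusted p = 0.000872). Both lay outside the 95% intervals of the main fit, on the log2 scale -4.87 to -2.99 for Usp18 and -1.70 to -1.02 for Isg15.

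The enzymes of conjugation did not pass the test after PBS. The log2 fold change between Ifnar2-/- and wild type was -0.16 for Uba7 (95% interval -0.62 to 0.30, limma adjusted p = 0.719), -0.17 for Ube2l6 (-0.59 to 0.26, adjusted p = 0.674) and -0.20 for Herc6 (-0.62 to 0.21, adjusted p = 0.578). Ube2l6 lay at -1.01, -0.9997 and -0.863 in Ifnar2-/- and at -0.816, -0.697 and -0.861 in wild type. Its groups were apart only by the third decimal, and those of Uba7 and Herc6 overlapped. The Herc6 probe A_51_P169908 was well above background on 0 of 3 Ifnar2-/- PBS arrays and 2 of 3 wild-type PBS arrays, and no fold can be given for it. Thus 2 of 5 genes passed the threshold downward, beside 2.04% of all genes (2.85% upward and 4.88% in either direction). For 3 of 5 all Ifnar2-/- arrays lay below all wild-type arrays, beside 13.7% of all genes, and 15.4% lay above.

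No slide held both genotypes after PBS, so no value within a slide exists for this comparison. With slide as a fixed block, which links the groups through the other arrays, the log2 fold change was -1.01 for Isg15 (limma adjusted p = 0.318) and -3.92 for Usp18 (limma adjusted p = 0.222), so that neither passed the threshold. Only 31 of 18276 genes passed it under that setting, against 892 without the block. The directions held, and leaving out any of the 12 arrays kept both calls, with log2 fold changes from -1.49 to -1.22 for Isg15 and from -4.17 to -3.66 for Usp18. The same array, wild-type PBS 1, was the lowest of its group for Isg15, Usp18 and Herc6 probe A_52_P64514. It was not the lowest for Herc6 probes A_52_P679860 and A_51_P169908 or for Ube2l6 and Uba7. That array had a neutrophil marker sum of 110 against 15.8 and 10.4 on the other wild-type PBS arrays. The mast cell marker sum was 304 to 366 in Ifnar2-/- and 201 to 283 in wild type after PBS, with 2 of 8 markers higher. The eosinophil sum was 1.61 to 3.03 in Ifnar2-/- and 3.28 to 5.48 in wild type, with 1 of 4 markers lower. Of the other types, 2 of 10 neutrophil and 1 of 8 mesothelial markers were lower in Ifnar2-/-. Higher were 2 of 7 dendritic cell, 2 of 11 large peritoneal macrophage and 1 of 8 monocyte markers. No B cell, T and NK cell or erythroid marker passed. Of all genes 2.85% were higher and 2.04% lower in that comparison. The part of these cells in the levels of Isg15 and Usp18 was not tested.

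After IFN-β all 5 genes were lower in Ifnar2-/- than in wild type, where 17.2% of all genes passed the threshold downward, 21.3% upward and 38.4% in either direction. Isg15 was 832-fold lower (95% interval 655 to 1055, limma adjusted p = 1.81e-10). Usp18 was 3008-fold lower (95% interval 1569 to 5767, limma adjusted p = 1.67e-08), with 2 of 3 Ifnar2-/- arrays well above background. Sizes also depended on the background treatment. Normexp gave log2 fold changes of -9.85 for Usp18 against -11.55, -9.23 for Isg15 against -9.70, and -5.215 for Herc6 against -5.67. Each of these lay outside the 95% interval of the main fit, while Ube2l6 (-4.36) and Uba7 (-2.91) stayed inside theirs. Herc6 was 50.8-fold lower, Ube2l6 26.0-fold and Uba7 7.91-fold lower, with limma adjusted p of 7.66e-09 for Herc6, 3.49e-08 for Ube2l6 and 1.92e-06 for Uba7. The groups did not overlap for any of the 5, as for 21.2% of all genes in that direction and 25.6% in the other. This comparison shares its arrays with the others, so the sizes follow from the values already given.

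On slide 2 alone, with 1 Ifnar2-/- and 2 wild-type IFN-β arrays, the log2 difference was -9.51 for Isg15, -11.72 for Usp18, -5.41 for Herc6, -4.36 for Ube2l6 and -2.72 for Uba7. The dim Herc6 probe A_51_P169908 was well above background on 0 of 3 Ifnar2-/- and on 3 of 3 wild-type IFN-β arrays. It was at least 16.9-fold lower in Ifnar2-/-, taking the lowest signal well above background on each Ifnar2-/- array as the limit. The probe passed the filter only through this wild-type group, so no p is given for it.

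**Figure D3:**
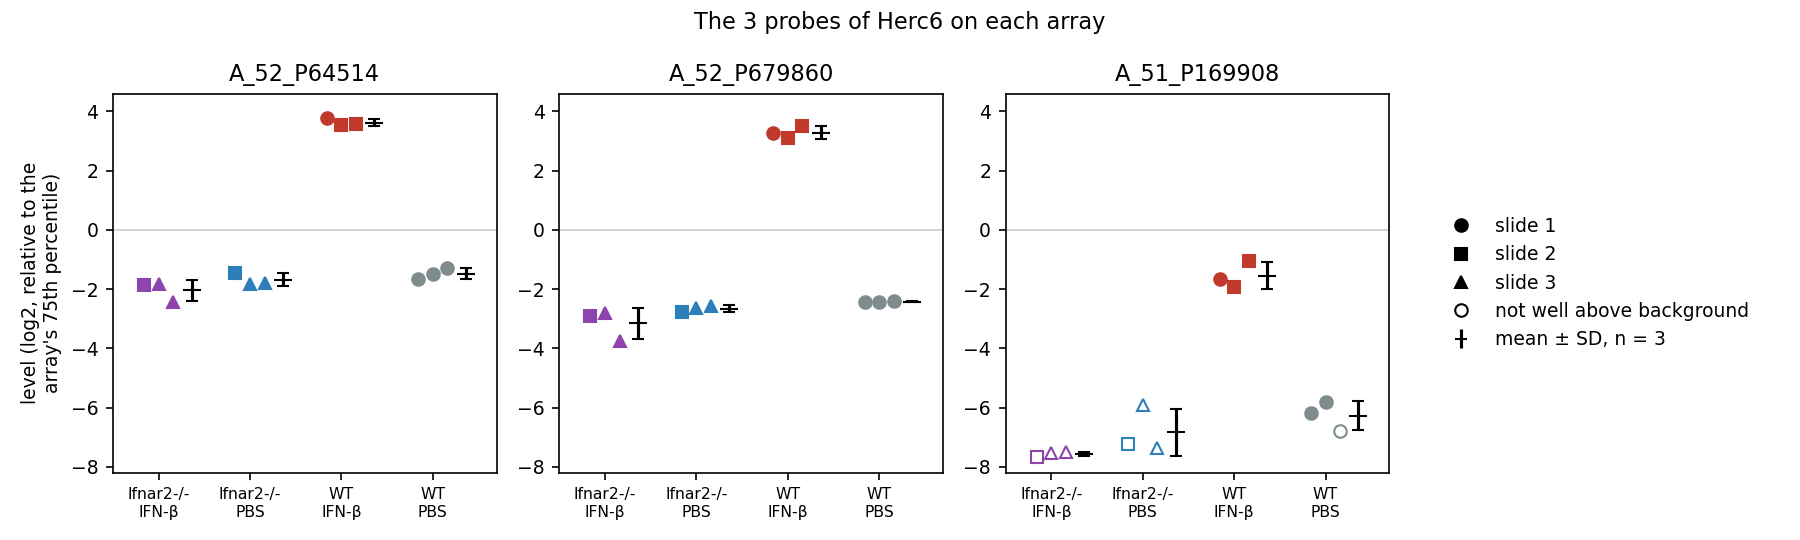
Level of the 3 Herc6 probes on each array (vertical axis, log2 relative to the array's 75th percentile), by group; points are arrays, shaped by slide and open where not well above background, and black marks are means ± SD (n = 3). In each panel the wild-type IFN-β arrays lie above all others, and A_51_P169908 is not well above background on any Ifnar2-/- array.

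The order of the group means was the same for Isg15 and Usp18. Isg15 averaged -2.22 ± 0.15 in Ifnar2-/- after IFN-β and -2.54 ± 0.27 in Ifnar2-/- after PBS, 7.48 ± 0.09 in wild type after IFN-β and -1.18 ± 0.18 in wild type after PBS (SD, n = 3 each). Usp18 averaged -5.06 ± 0.96 in Ifnar2-/- after IFN-β and -5.56 ± 0.52 in Ifnar2-/- after PBS, 6.49 ± 0.07 in wild type after IFN-β and -1.63 ± 0.39 in wild type after PBS. For both, the arrays of the Ifnar2-/- groups overlapped and their difference did not pass the test. For Herc6 the means were -2.05 ± 0.35 and -1.69 ± 0.21 in Ifnar2-/- after IFN-β and after PBS, and 3.62 ± 0.12 and -1.48 ± 0.18 in wild type after IFN-β and after PBS. Ube2l6 averaged -1.12 ± 0.45 and -0.96 ± 0.08 in Ifnar2-/-, and 3.58 ± 0.14 and -0.79 ± 0.08 in wild type, in the same order of treatments. Uba7 averaged 3.28 ± 0.50 and 3.85 ± 0.10 in Ifnar2-/-, and 6.26 ± 0.11 and 4.01 ± 0.10 in wild type, again in that order. For Herc6, Ube2l6 and Uba7 no neighbours below the wild-type IFN-β group passed the test.

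The other genes of the same roles were described from lists of ubiquitin-like modifiers and of E1, E2, HECT E3 and protease families. In each family the ISG15 gene had a larger wild-type log2 fold change than every other member tested, which is a description of these arrays with no test of its own. Of all genes tested 17.6% passed upward and 21.8% downward in wild type, and family counts near these shares are no result about a family. Among 17 other modifiers 4 were higher and 2 lower after IFN-β in wild type (median log2 fold change 0.01). Ufm1, another ubiquitin-like modifier, had 0.91 ± 0.14 (SE; limma adjusted p = 0.000545), and the autophagy modifier Gabarapl1 had -1.49 ± 0.15 (limma adjusted p = 2.55e-05). The polyubiquitin gene Ubb had -0.04 (limma adjusted p = 0.766).

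Among 9 other E1 subunits 2 were higher and 0 lower (median 0.02), beside 17.6% and 21.8% of all genes. Uba1, the main E1 of ubiquitin, had 0.35 (limma adjusted p = 0.0479), against 2.26 for Uba7. Under quantile normalization, without scaling or with slide as a block, 0 of 9 passed by limma. The call of Uba1 ended on leaving out 9 of the 12 arrays singly, all but wild-type PBS 2 and Ifnar2-/- IFN-β 2 and 3 (adjusted p up to 0.169). Uba6, the other E1 that activates ubiquitin, had -0.18 (adjusted p = 0.416).

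Among 35 other E2 enzymes 11 were higher and 3 lower (median 0.22), beside 17.6% and 21.8% of all genes. Ube2e1 had 1.25 (limma adjusted p = 1.38e-05), Ube2f, the E2 of NEDD8, had 1.07 (adjusted p = 0.000431) and Ube2h had -1.66 (adjusted p = 1.65e-05). Ube2l3, a close relative of Ube2l6 that carries ubiquitin, had 0.40 (limma adjusted p = 0.0188) against 4.37 for Ube2l6. That call of Ube2l3 ended without scaling, under quantile normalization, with slide as a block, and on leaving out wild-type PBS 3, wild-type IFN-β 1 or wild-type IFN-β 3 (adjusted p up to 0.0602).

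Among 22 other HECT ligases 4 were higher and 8 lower (median -0.15), beside 17.6% and 21.8% of all genes. Arel1, an E3 that acts on regulators of apoptosis, had 2.01 ± 0.12 (SE; limma adjusted p = 6.61e-07), Trip12 had 1.10 (adjusted p = 2.25e-05), Hectd3 had -1.23 (adjusted p = 3.59e-05) and Nedd4l had -1.12 (adjusted p = 5.96e-05). Of the small HERC proteins nearest to Herc6, Herc3 had 0.71 (limma adjusted p = 0.00499), a call that ended with the mean of its probes or slide as a block, and Herc4 had -0.12 (adjusted p = 0.56).

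Among 40 other ubiquitin-specific proteases 13 were higher and 10 lower (median 0.13), beside 17.6% and 21.8% of all genes. Usp25 had 2.30 ± 0.16 (SE; limma adjusted p = 1.77e-06), Usp12 had 1.68 (adjusted p = 3.83e-06), Usp42 had 1.36 (adjusted p = 3.28e-05) and Usp54 had -1.39 (adjusted p = 0.00013), against 8.12 for Usp18. Cyld, which cuts linear and K63-linked ubiquitin chains, had -0.65 (limma adjusted p = 0.0239). Its call ended on leaving out wild-type PBS 1 or 3 or wild-type IFN-β 1 or 3 (adjusted p up to 0.0794). It also ended with slide as a block, with the mean of its probes and with no filter on dim probes.

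**Figure D4:**
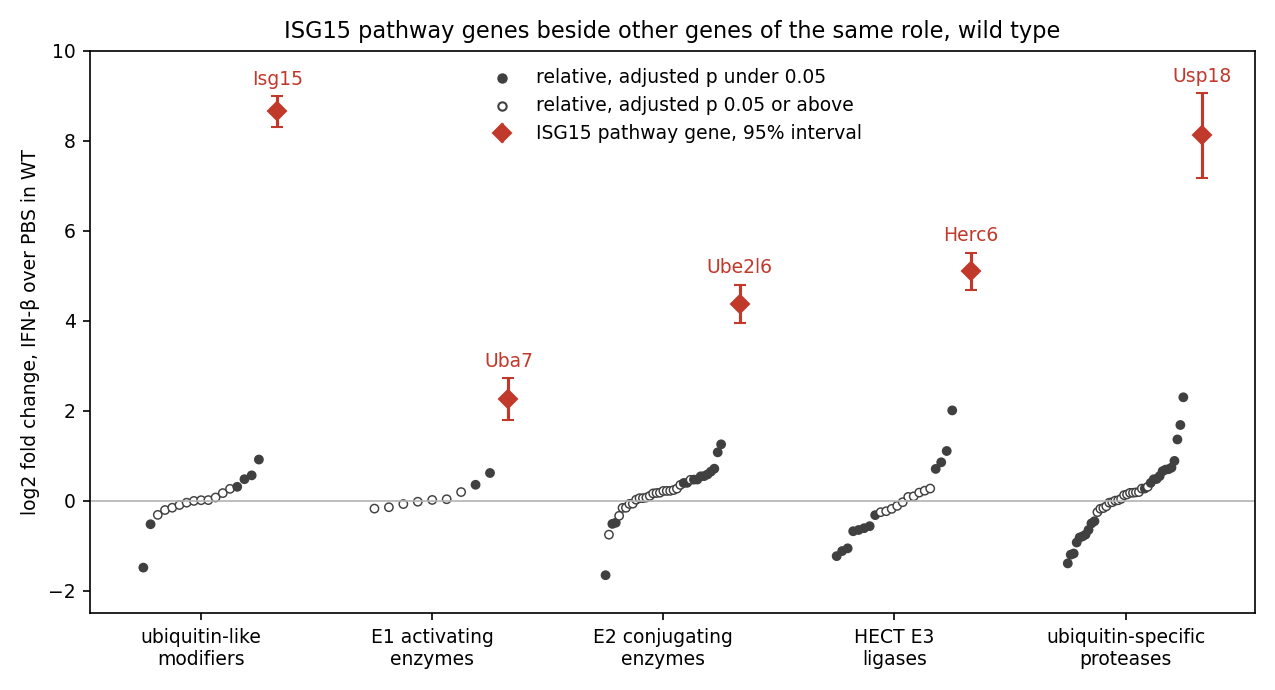
Log2 fold change between IFN-β and PBS in wild type (vertical axis) for genes of 5 roles; small points are other genes of the role, filled where the adjusted p was under 0.05, and diamonds with 95% intervals are the ISG15 pathway genes. Each diamond lies above every small point of its family, and by the least for Uba7 at 2.26.

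In Ifnar2-/- mice 1.13% of all genes passed the test by limma after IFN-β. Among the relatives 0 of the 17 modifiers, 9 E1 subunits, 22 HECT ligases and 40 proteases passed it, and 2 of the 35 E2 enzymes did. These were Ube2f (log2 fold change 0.88, limma adjusted p = 0.0347) and Ube2s (0.57, adjusted p = 0.0488). Neither passed in the Ifnar2-/- arrays alone, without the replicate block or with it (limma adjusted p with the block = 0.224 for Ube2f and 0.261 for Ube2s). The call of Ube2s also ended on leaving out any single array (adjusted p 0.0599 to 0.162), and that of Ube2f on leaving out any of 8 (adjusted p up to 0.148): wild-type PBS 1 and 2, wild-type IFN-β 1 and 3, the 3 Ifnar2-/- PBS arrays and Ifnar2-/- IFN-β 3. The difference of responses of Ube2f between the genotypes was -0.20 (limma adjusted p = 0.64).

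In the interaction, 1 modifier passed upward and 1 downward, as did 1 and 3 E2 enzymes, 3 and 3 HECT ligases, and 4 and 6 proteases, while 0 of 9 E1 subunits passed by limma. Of all genes 8.68% passed it upward and 9.09% downward. The relatives with the largest wild-type rises had smaller responses in Ifnar2-/-, with a difference of -2.19 for Usp25 (limma adjusted p = 8.22e-05), -2.08 for Arel1 and -1.23 for Ube2e1. Herc3 differed by -1.12 (limma adjusted p = 0.00603), a call that ended with the mean of its probes or slide as a block. These differences are smaller than those of the ISG15 genes with the same role.

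Of 8 other ligases, partners and receptor genes of ISG15, 2 were higher after IFN-β in wild type: Trim25, a ligase that has been linked to ISG15, with 1.02 (limma adjusted p = 0.000858), and Stat2, which with Usp18 binds the receptor, with 3.58 (adjusted p = 3.28e-08). Arih1, the human homologue of which is also an ISG15 ligase, had 0.19 (adjusted p = 0.212). In the same comparison 17.6% of all genes were higher and 21.8% lower. Of 18 genes for proteins that have been reported to carry ISG15, 7 were higher and 3 lower (median 0.40). The members with the largest changes were Mx1, an antiviral GTPase, with 8.48 ± 0.51 (SE; adjusted p = 7.5e-07), the RNA sensors Ifih1 with 5.18 (adjusted p = 3.79e-07) and Ddx58 with 3.50 (adjusted p = 1.19e-06), and the RNA-activated kinase Eif2ak2 with 4.96 (adjusted p = 4.08e-08). These changes are of transcripts, and no conjugate was measured.

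Of 9 ISGF3 and IRF genes 8 were higher and 1, Irf3, lower (median 1.73), beside 17.6% and 21.8% of all genes. Irf7 had 6.47 ± 0.22 (SE; limma adjusted p = 1.47e-08), Stat2 3.58 and Irf1 2.69 (adjusted p = 1.03e-05). In Ifnar2-/- mice 0 of the 9 passed the test by limma (1.13% of all genes), and 7 of 9 passed the interaction downward (9.09% of all genes).

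After PBS, 3 of the 9 factors passed the test between the genotypes, as Isg15 and Usp18 did, beside 4.88% of all genes. Irf7 was lower in Ifnar2-/- by a log2 fold change of -1.53 ± 0.22 (SE; limma adjusted p = 0.0026), Irf9 by -0.97 ± 0.13 (adjusted p = 0.00187), and Irf8 was higher by 0.71 (adjusted p = 0.014). The call of Irf8 ended on leaving out wild-type PBS 1 or 2 or Ifnar2-/- PBS 2 (adjusted p up to 0.0632), and all 3 ended with slide as a block. Of the 18 proteins reported to carry ISG15, Mx1 (-2.33, limma adjusted p = 0.028) and Ddx58 (-1.09, adjusted p = 0.0218) were lower. The probe of Mx1 was well above background on 1 of 3 Ifnar2-/- PBS arrays and 3 of 3 wild-type PBS arrays, so the size of its difference is poorly known. Over all 21 other settings the log2 fold change of Mx1 ran from -2.81 to -0.72 and passed the threshold in 13. The calls of Mx1 and Ddx58 ended with slide as a block and on leaving out wild-type PBS 1 or 3 or Ifnar2-/- PBS 2 or 3, and that of Mx1 also without wild-type PBS 2 (adjusted p up to 0.115 for Mx1 and 0.0881 for Ddx58). Among the modifiers, E1, E2 and HECT families 0 genes passed the test by limma after PBS, and 1 protease did: Usp25 at -0.65 (adjusted p = 0.0409). Leaving out any of 10 arrays ended the call of Usp25 (adjusted p up to 0.128), and only Ifnar2-/- IFN-β 1 and 3 could be left out without that.

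The genes with the most similar pattern over the 12 arrays were ranked by Pearson's r of log2 levels among 18252 genes. The arrays fall into separate groups, so r describes mainly the gap between the wild-type IFN-β arrays and the rest, and no p is given. The 3 nearest to Isg15 were Zbp1 (r = 0.999), Daxx (0.998) and Irgm2 (0.998), and those nearest to Usp18 were Oasl1 (r = 0.993), Oas3 (0.993) and Gbp3 (0.989). For Uba7 they were Ifi203 (r = 0.998), Csrp1 (0.995) and BC013672 (0.994), for Ube2l6 Gbp5 (0.998), Trim14 (0.998) and Cenpj (0.998), and for Herc6 Phf11d (0.998), Ifi204 (0.997) and Bst2 (0.997). Between the 5 genes themselves r was lowest for Usp18 with Uba7 (0.931) and highest for Ube2l6 with Herc6 (0.997).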

How the data were processed

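Total RNA of peritoneal exudate cells was measured on 12 single-colour Agilent arrays, 3 in each of 4 groups. Per the file headers, Agilent Feature Extraction 9.5.3.1 made the deposited processed signal, an intensity on a linear scale from which a fitted spatial background and a multiplicative trend within the array were removed, with no scaling between arrays. Surrogate values were switched on for dim spots, so the lowest signals (Usp18 and 1 Herc6 probe in Ifnar2-/-) are least certain. Mean and local background intensities, also deposited, served the normexp setting. The deposited series table equals the processed signal (0 of 45018 values differed). Probe positions are on mm7, per the file headers.

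Outlier spots were left out and spots of a probe averaged. Each value is the log2 processed signal less the array's 75th percentile. A probe was kept if every array of some group had it well above background and at least 6 arrays gave a value (27718), and the probe with the highest mean stood for a gene (18276). limma 3.58.1 in R 4.3.3 fitted 4 group means, with Benjamini-Hochberg adjustment over all genes and a threshold of 0.05, and was tested on simulated data. The number of arrays limits the precision. Symbols came from RefSeq tables of GRCm38.p6, where 22951 probes matched through an accession, 6659 through a current and 3109 through a former symbol; the files' own name stands for 8455. All 5 genes and the 3 probes of Herc6 are named. In each list up to 4 genes past the threshold were named by size of change, with fixed relatives (Ubb, Uba1, Uba6, Ube2l3, Herc3, Herc4, Usp25, Cyld, Trim25, Arih1) and, for each of the 5, the 3 genes of highest r. Some genes and probe sequences are not reported here. Genes and lists were chosen with earlier results of these data known. Same-numbered Ifnar2-/- arrays of the 2 treatments had correlated deviations (r of 0.10 to 0.51, 3 of 3 pairs over 0.1). The own number correlated best only for replicate 1, and each of these pairs shared a slide. This was seen in the data and is not stated in the labels. No other pair of groups was over 0.1 in all 3 pairs. Other scalings, background correction, filters, slide and replicate blocks and leaving out arrays were tried.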

Additional observations from a re-analysis of the deposited data

Results flagged for a closer look

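The response to IFN-β differed between Ifnar2-/- and wild-type mice for all 5 genes by the interaction term of the limma fit. On the log2 scale, Ifnar2-/- minus wild type, the difference was -8.34 for Isg15, -7.62 for Usp18, -2.83 for Uba7, -4.53 for Ube2l6 and -5.46 for Herc6. Among all genes tested 17.8% passed the same test. All 3 Ifnar2-/- IFN-β arrays lay below all 3 wild-type IFN-β arrays for each of the 5 genes.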

How the results depend on the processing

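Of 525 values of the 5 genes under other settings, 523 kept their side of the threshold, and every value that passed kept its direction. The exceptions were both after PBS with slide as a fixed block, where Ifnar2-/- against wild type gave -1.01 for Isg15 and -3.92 for Usp18 and neither passed; the cause was not tested. Within slide 2, with 1 Ifnar2-/- array of each treatment, Ube2l6 gave 0.18 between IFN-β and PBS in Ifnar2-/-, and Ifnar2-/- against wild type after IFN-β gave -9.51 for Isg15, -4.36 for Ube2l6 and -5.41 for Herc6.

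Counts over all genes moved more. The fixed slide block left 4427 genes in wild type (7205 without it), 118 in Ifnar2-/- (207), 1921 in the interaction (3247), 31 between genotypes after PBS (892) and 4359 after IFN-β (7027). In Ifnar2-/- the count was 337 with normexp background correction, 68 with no filter on dim probes and 13 with only the groups compared. Leaving out each array gave 32 to 293 genes in Ifnar2-/- and 437 to 1255 between genotypes after PBS; the first moved by over 1.5 times without wild-type PBS 1 or 2, wild-type IFN-β 1 or any Ifnar2-/- PBS array, and the second without wild-type PBS 1 or 3 or Ifnar2-/- PBS 2 or 3. Without scaling between arrays the share of calls that were higher was 30.6% in wild type (44.6% with scaling), 71.2% in the interaction (48.8%) and 80.8% after IFN-β (55.3%), and normexp gave 66.2% in Ifnar2-/- (81.6%). The median of all genes was then -0.21 in wild type, 0.31 in the interaction, 0.11 after PBS and 0.46 after IFN-β. Among the related genes, without scaling Ubb gave 0.10 and Ube2l3 0.0551 between genotypes after IFN-β, against -0.28 and -0.32 with it, and quantile normalization gave -0.36 for Ifnar2 in wild type against 0.01. Over all settings the count past the threshold in wild type ran from 3 to 8 for modifiers, 0 to 2 for E1, 7 to 17 for E2, 6 to 12 for HECT ligases, 14 to 24 for proteases and 6 to 12 for proteins reported to carry ISG15.

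Only between the Ifnar2-/- groups did 3 of 3 same-numbered pairs correlate over 0.1 (r of 0.51, 0.19 and 0.10). The own number correlated best only for replicate 1 of these. Replicate 1 of both Ifnar2-/- groups lay on slide 2, and replicates 2 and 3 of both on slide 3. Each pair thus shared a slide, and the part of the slide was not tested. Over all 18 same-numbered pairs r was -0.12 to 0.51, 5 of them over 0.1, and in 8 of the 18 the own number correlated best. With the replicate block over all 4 groups 6990 genes passed in wild type, 138 in Ifnar2-/- and 1073 after PBS, and no call on the 5 genes changed. The replicate block in the Ifnar2-/- arrays alone, added after seeing the data, left 0 genes there, against 13 in those arrays without it. The limma adjusted p for the 5 genes was then 0.314 to 0.741. The dim signals of Usp18 and of Herc6 probe A_51_P169908 in Ifnar2-/- mice lie near the limit of detection, which was higher on slide 3.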
